A study of Mus musculus with 5 samples.

Results

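Oxidative phosphorylation genes were followed in CD4 single-positive thymocytes, T cells late in their development that keep CD4 and have lost CD8, from mice with and without a transgene for the zinc finger transcription factor PLZF. Members were all genes whose symbol begins with Ndufa, Ndufb, Ndufc, Ndufs, Ndufv, Sdh, Uqcr, Cox4 to Cox8 or Atp5, without symbols marked as pseudogenes by -ps. Of 12267 genes with a row of their own on the array, 55 met this rule, and all 55 were tested with no filter on level. The series held 2 arrays of wild type cells and 3 of PLZF transgenic cells, hybridised to Affymetrix mouse exon arrays. Both groups came from the thymus of mice on the C57BL/6J background aged 4 to 6 weeks, and each sample was sorted from pooled animals. The promoter that drives the transgene is not given in the sources used here, and the level of Zbtb16, the gene of PLZF, was not analysed here. The question posed by the comparison was whether transcripts of the respiratory chain and ATP synthase differed between CD4 single-positive cells of the 2 genotypes.

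Oxidative phosphorylation takes place in the inner mitochondrial membrane. Complex I accepts electrons from NADH and complex II from succinate, ubiquinone carries them to complex III, and cytochrome c carries them on to complex IV, which reduces oxygen. The proton gradient built on the way drives ATP synthase, often called complex V. Resting T cells depend largely on this pathway for ATP, and activated T cells add glycolysis. Some subunits of complexes I, III, IV and V are encoded in mitochondrial DNA and are not part of the rule, while every subunit of complex II is encoded in the nucleus.

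The measured genes fell into 21 subunits of complex I, 3 of complex II, 6 of complex III, 6 of complex IV and 9 of ATP synthase. The symbol rule also took in 8 assembly factors, the paralog Ndufa4l2 and Ndufa11b, which the reference annotation calls a transcribed pseudogene. RefSeq lists 100 protein-coding mouse genes under the same symbols, of which 54 were measured. The others, among them Sdhd, Uqcrc1, Uqcrc2 and Cox4i1, were not analysed here as members. Among the members, 47 of 55 had a mean level at or above the median of all genes.

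Few of the measured members were called different between the genotypes. Ndufv3 was the single member called higher in transgenic cells, and no member was called lower. That is 1 of 55 members higher, where 1.72% of all genes tested were called higher, and 0 of 55 lower, where 3.02% were called lower (limma, Benjamini-Hochberg adjusted p under 0.05 over 12267 genes). In either direction 4.74% of all genes were called, and 8.53% of the genes at or above the median level, beside 1 of the 47 members at such levels. At an unadjusted p under 0.05 in the same limma fit, 7 members had higher and 2 had lower values in transgenic cells, where 7.07% and 9.74% of all genes did. In these bulk samples a smaller share of cells of a type and less RNA per cell cannot be told apart. Other scalings of the arrays gave other splits of all called genes, from 211 higher and 370 lower as deposited to 508 and 581 after cyclic loess and 577 and 553 after quantile normalization, and each of these 2 scalings called 5 members higher and 0 lower.

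The median log2 change over the 55 members was 0.040, against 0.0 over all genes, and the changes ran from -0.18 to 0.28. A change above 0 was seen in 39 members (70.9%), below 0 in 14 and of exactly 0 in 2. Of all 12267 genes, 5787 (47.2%) lay above 0, 5025 below and 1455 at 0. At or above the median level, 2778 of 6134 genes (45.3%) lay above 0, 3017 below and 339 at 0. After median centring, cyclic loess and quantile normalization the number above 0 was 43, 45 and 46, and the median change of the members 0.044, 0.057 and 0.074. The median over all genes also moved up under these scalings, to 0.0039, 0.014 and 0.021. Large changes were few: 1 of 55 members, or 1.82%, moved by more than 0.2 on the log2 scale. The share was 16.3% of all genes and 22.1% of the genes at or above the median level. The typical size was close to that of all genes, with a median absolute change of 0.058 in members and 0.052 in all genes. It was 0.073 in genes at or above the median level. Changes under 0.1 in either direction made up 67.3% of members, 67% of all genes and 58.8% of genes at or above the median level. In 53 members the 95% interval of the fit stayed within a 1.5-fold difference in either direction, and in 41 within a 1.2-fold difference. Most genes met these bounds, 10665 of 12267 the first and 7680 the second. The members outside the 1.5-fold bound were Cox5a and Sdhaf4.

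**Figure D1:**
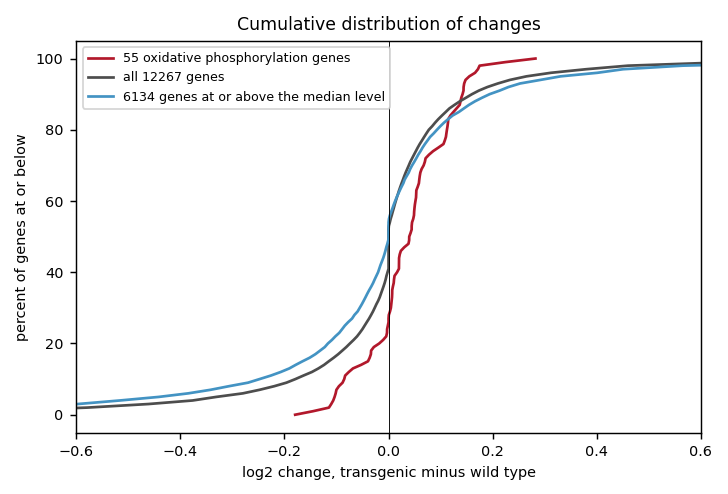
Cumulative distribution of log2 changes, transgenic minus wild type (x axis, tails cut off), as the percent of genes at or below each change (y axis), for the 55 oxidative phosphorylation genes, all 12267 genes and the 6134 genes at or above the median level. The members' curve lies to the right of 0 for 39 of 55 genes and ends at 0.28.

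Many of these small changes rest on few arrays. A pair of arrays was taken to hold the same value of a gene up to a difference of 0.000005 in log2. Only 17 members had 5 different values, 9 had 2 and 2 (Ndufb10 and Ndufaf2) had the same value in all 5 arrays. Among all genes 32.8% had 5 different values, close to the 30.9% of members. Where a member had 2 values, 1 array stood apart from 4 identical ones, and in 5 of these 9 members it was wild type replicate 1. Wild type replicate 2 was above replicate 1 in 35 of the 55 members (63.6%), below it in 15 and equal to it in 5. Among all 12267 genes it was above in 5794 (47.2%), below in 3992 and equal in 2481. The interval of a gene with identical values is narrow for that reason. Of the 17 members with 5 different values 15 also stayed within 1.5-fold, beside 2579 of 4027 such genes.

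The arrays of the 2 groups did not overlap in 18 members, 14 of them higher and 4 lower in transgenic cells. The 14 were 25.5% of members and the 4 were 7.27%, beside 12.6% and 15.1% of all genes. At or above the median level it was 13 higher and 3 lower of 47 members, beside 1132 and 1477 of 6134 genes. In either direction the share was 32.7% of members, 27.7% of all genes and 42.5% of genes at or above the median level. The gap between the groups could be very small: in Atp5e it was 0.00014, and in Ndufs3 0.0047 on the log2 scale. Of the 17 members with 5 different values, 8 had no overlap, or 47.1%, beside 63.1% of all such genes. Among these 17, Ndufv3 was again the only one called when such genes were fitted alone, where 10.4% of 4027 genes were called higher and 15.5% lower.

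**Figure D2:**
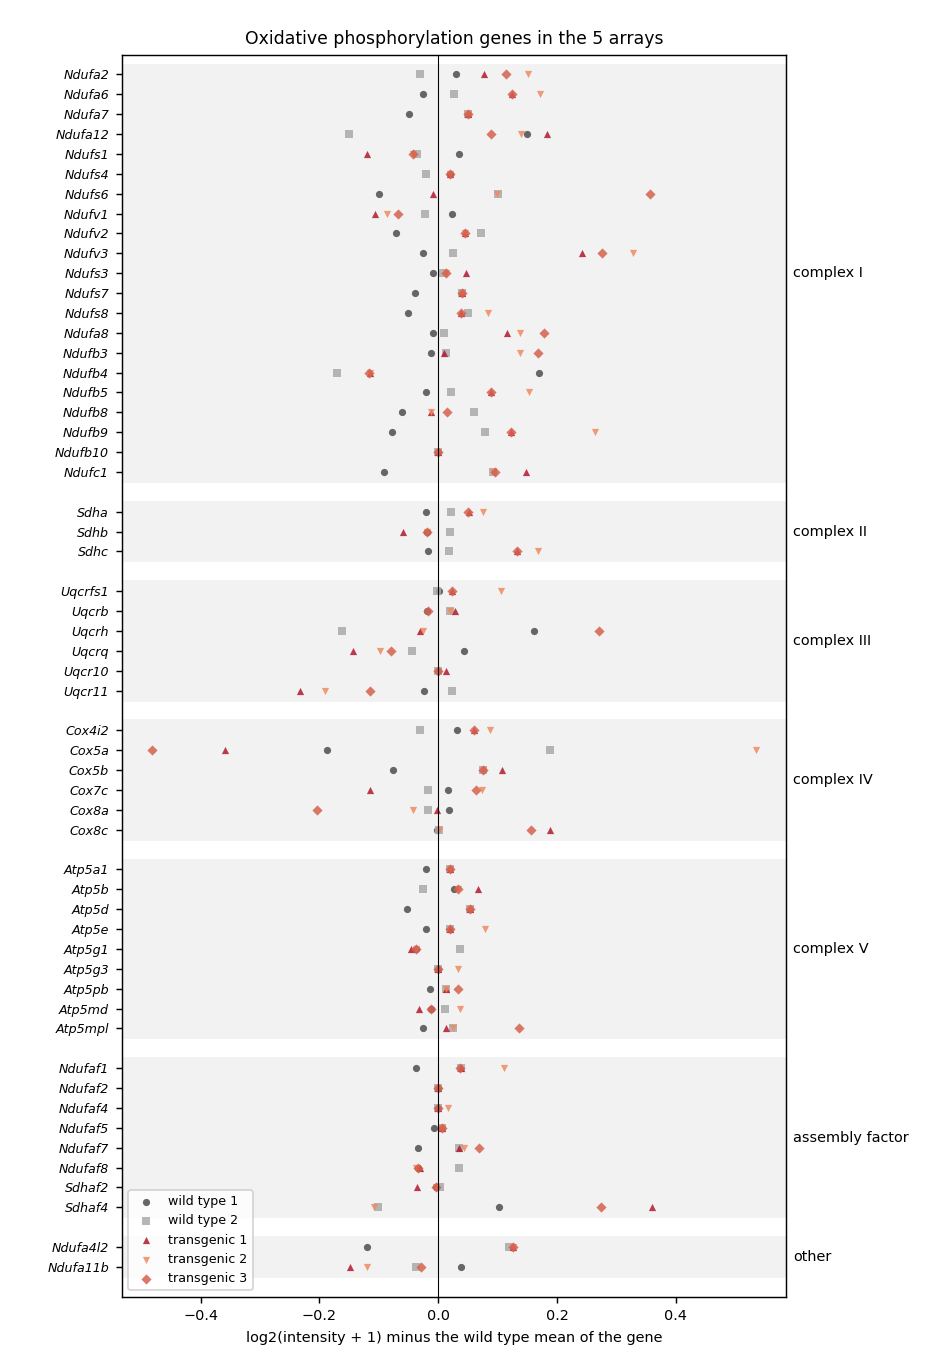
Level of each of the 55 genes in the 5 arrays, as log2(intensity + 1) minus the gene's wild type mean (x axis), by complex (y axis). Grey circles and squares are wild type arrays, red and orange triangles and diamonds transgenic arrays. In Ndufv3, Ndufa8, Ndufa6 and Sdhc all 3 transgenic symbols lie to the right of both wild type symbols.

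Complex I, the NADH dehydrogenase, held the one call. Ndufv3 encodes a small accessory subunit of the NADH-oxidising module, next to the flavoprotein subunits Ndufv1 and Ndufv2. Its log2(intensity + 1) was 8.82 and 8.87 in wild type and 9.09, 9.18 and 9.12 in transgenic arrays. All 3 transgenic arrays were above both wild type arrays, with a gap of 0.22 between the groups. The group means were 8.85 ± 0.036 (SD, n = 2) and 9.13 ± 0.043 (SD, n = 3). The change was 0.28 ± 0.035 (SE) on the log2 scale or 1.22-fold, with a 95% interval of 0.18 to 0.38 and an adjusted p of 0.0481 (limma, Benjamini-Hochberg). This call was close to the threshold. Leaving out any 1 of the 5 arrays left the change between 0.26 and 0.31 and the adjusted p between 0.0750 and 0.207.

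The 250 bases before the RefSeq start of 3 members are shown in build GRCm38.p6, 5′ to 3′ on the strand of the gene: Ndufv3 as the member called higher, Ndufa8 as the complex I gene with the next smallest p, and Uqcr11 as the member with the lowest change. Ndufv3 lies at chr17:31519865-31520114 on the plus strand, Ndufa8 at chr2:36049339-36049588 and Uqcr11 at chr10:80406822-80407071, both on the minus strand. Capitals mark a core of sites for NRF1, a regulator of many respiratory chain genes, or a core of sites for GABP, an ETS family factor with many targets among the same genes.
Ndufv3: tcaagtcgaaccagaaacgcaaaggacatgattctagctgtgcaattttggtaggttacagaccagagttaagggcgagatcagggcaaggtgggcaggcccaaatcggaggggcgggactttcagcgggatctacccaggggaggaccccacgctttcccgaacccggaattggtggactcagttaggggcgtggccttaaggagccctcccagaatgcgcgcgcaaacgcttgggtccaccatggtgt
Ndufa8: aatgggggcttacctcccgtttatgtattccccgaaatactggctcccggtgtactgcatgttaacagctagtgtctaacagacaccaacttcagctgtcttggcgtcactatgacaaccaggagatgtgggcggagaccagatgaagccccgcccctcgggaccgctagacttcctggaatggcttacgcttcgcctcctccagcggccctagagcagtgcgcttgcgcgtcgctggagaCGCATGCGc
Uqcr11: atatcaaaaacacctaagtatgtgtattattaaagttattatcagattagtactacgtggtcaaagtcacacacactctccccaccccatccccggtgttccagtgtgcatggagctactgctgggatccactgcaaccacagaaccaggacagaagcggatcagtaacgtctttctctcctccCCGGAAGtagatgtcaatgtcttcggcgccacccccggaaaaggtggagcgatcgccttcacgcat

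The NRF1 core searched was GCATGCG and the GABP core CCGGAAG, each on both strands, and the cores have no letters in common in the windows shown. In Ndufa8 the NRF1 core is found on both strands, in overlapping letters next to the start. Uqcr11 holds the GABP core once, and neither set of letters is in the Ndufv3 window. Over the 43 members with a RefSeq start in the table, the NRF1 core was in 4 (9.3%) and the GABP core in 7 (16.3%), against 3.43% and 7.83% of the 27025 genes with a window of that length. The 4 with the NRF1 core were Ndufa6, Ndufa8, Ndufaf4 and Sdhb, and the 7 with the GABP core were Atp5e, Ndufaf1, Ndufaf8, Ndufs3, Sdhaf2, Uqcr11 and Uqcrh. The log2 changes of the first 4 were 0.14, 0.14, 0.0056 and -0.033, and those of the 7 ran from -0.18 (Uqcr11) to 0.071 (Uqcrh), so members with either core had changes on both sides of 0.

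Of the 10 measured subunits of the NADH-oxidising module, 8 had a change above 0 and 2 below, with a median of 0.082. Ndufv1, which binds the flavin and takes the electrons from NADH, was 9.16 and 9.12 in wild type and 9.03, 9.05 and 9.07 in transgenic arrays. Its groups did not overlap, with lower values in transgenic cells, yet its change of -0.087 ± 0.020 (SE) did not pass (limma adjusted p = 0.153). Ndufs1, the largest subunit, with several iron-sulfur clusters, was 8.99 and 8.92 against 8.83, 8.91 and 8.91, a change of -0.069 (95% interval -0.19 to 0.047). Ndufv2, the partner of Ndufv1, was 9.30 and 9.44 in wild type and 9.41 in all 3 transgenic arrays, which lay between the wild type values. The 3 genes of the flavoprotein part of the module thus had changes of -0.087 (Ndufv1), 0.044 (Ndufv2) and 0.28 (Ndufv3), of which the last passed the test. Their difference from each other was not tested.

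Among the accessory subunits of the same module, Ndufa6 was 9.09 and 9.14 in wild type and 9.24, 9.29 and 9.24 in transgenic arrays. Its change was 0.14 ± 0.026 (SE, limma adjusted p = 0.103). Ndufa2 was 9.75 and 9.69 against 9.80, 9.88 and 9.84, a change of 0.11 ± 0.033 (SE, limma adjusted p = 0.229). In both genes the transgenic arrays lay above the wild type arrays without passing the test. Ndufs4, needed for a stable NADH module, was at 8.31 in 4 arrays and 8.27 in wild type replicate 2. Ndufa7 was at 8.07 in 4 arrays and 7.97 in wild type replicate 1. Ndufs6 and Ndufa12 varied more between arrays, with 95% intervals of -0.28 to 0.58 and -0.18 to 0.46, and their groups overlapped.

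The quinone module passes electrons on to ubiquinone, and its 3 measured core subunits were nearly level. Ndufs3 was 8.97 and 8.99 in wild type and 9.02, 8.99 and 8.99 in transgenic arrays. Ndufs7 was 11.91 and 11.99 against 11.99 in each transgenic array, and Ndufs8 was 9.94 and 10.04 against 10.02, 10.07 and 10.02. Their changes were 0.024, 0.040 and 0.053, and each 95% interval included 0 and ended below 0.17.

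In the membrane arm, which pumps protons, 5 of 8 measured accessory subunits had a change above 0, 2 below and 1 (Ndufb10) none. Ndufa8 was 9.20 and 9.22 in wild type and 9.32, 9.34 and 9.38 in transgenic arrays, with no overlap. Its change of 0.14 ± 0.023 (SE) had a limma adjusted p of 0.0749, with a range of 0.0187 to 0.626 over the alternatives. Ndufa8, Ndufa6 and Ndufb5 passed after cyclic loess and quantile normalization, and the first 2 also among genes at or above the median level. Ndufb5 was 8.67 and 8.71 against 8.78, 8.84 and 8.78, a change of 0.11 ± 0.030 (SE, limma adjusted p = 0.197). Ndufb9 had the third highest change of all members, at 0.17 ± 0.078 (SE), from 8.80 and 8.96 to 9.00, 9.14 and 9.00 (limma adjusted p = 0.458). Its gap between groups, 0.044, was smaller than the distance between the wild type arrays. Ndufb4 had the second lowest change, -0.12 ± 0.12 (SE, limma adjusted p = 0.609), which came from the wild type arrays: they stood at 8.27 and 7.93, on either side of 7.99 in all 3 transgenic arrays. Without wild type replicate 1 the change of Ndufb4 was 0.055. Ndufb3, Ndufb8 and Ndufc1 had changes of 0.11, -0.0031 and 0.11, with overlap or a shared value between the groups.

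**Figure D3:**
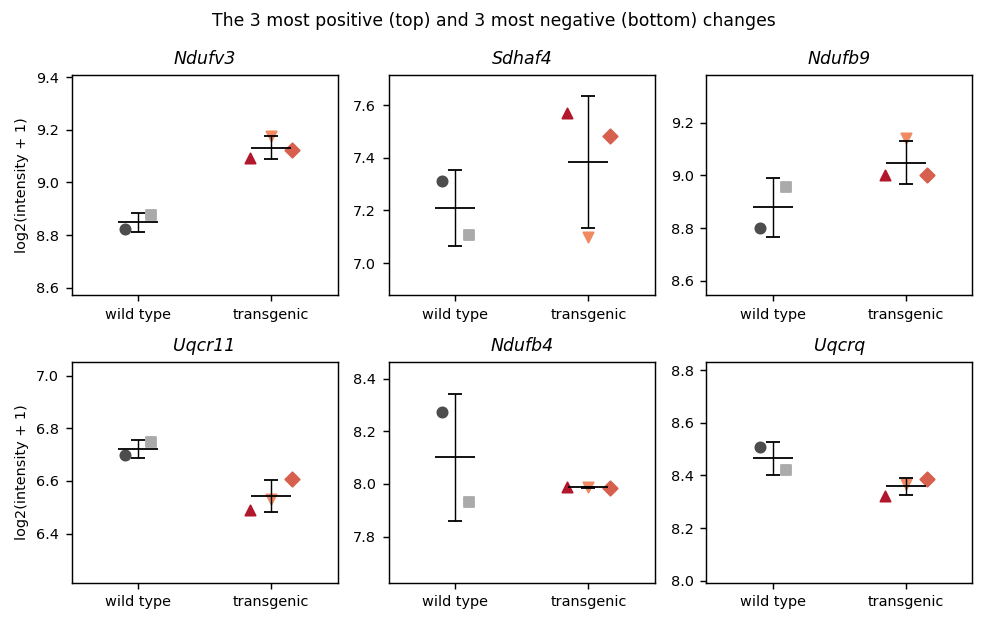
Level (y axis, log2(intensity + 1), each panel spanning the same range) of the 3 members with the most positive and the 3 with the most negative change in wild type and transgenic arrays. Symbols are arrays, long bars the group mean and whiskers the SD (n = 2 and n = 3). Ndufv3 (adjusted p = 0.0481) separates most clearly, while Sdhaf4 and Ndufb4 overlap between groups.

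Complex II, succinate dehydrogenase, links the chain to the citric acid cycle. Sdhc, an anchor subunit in the membrane that helps bind ubiquinone, was 9.24 and 9.28 in wild type and 9.39, 9.43 and 9.39 in transgenic arrays. The groups were apart by 0.11, and the change of 0.14 ± 0.019 (SE) had a limma adjusted p of 0.0528, just above the threshold. It passed after cyclic loess (adjusted p = 0.0161), after quantile normalization (0.0149) and among genes at or above the median level (0.0242), all by limma, and its adjusted p ran from 0.0149 to 0.543 over the alternatives tried. Sdha, the flavoprotein that oxidises succinate, was 10.60 and 10.64 against 10.67, 10.70 and 10.67, a change of 0.060 ± 0.018 (SE, limma adjusted p = 0.237). Sdhb, the iron-sulfur subunit, was 9.14 and 9.18 against 9.10, 9.14 and 9.14, a change of -0.033 with a 95% interval of -0.096 to 0.029. Sdhb stood at -0.0018 after cyclic loess and 0.020 after quantile normalization, so its sign depended on the scaling. None of the 3 subunits passed.

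Complex III, the cytochrome bc1 complex, had a median change of 0.0071 over 6 members, from -0.18 to 0.071. Uqcrfs1, the Rieske iron-sulfur protein, was 7.90 in both wild type arrays and 7.92, 8.01 and 7.92 in transgenic arrays, a change of 0.051 (95% interval -0.046 to 0.15). Its 2 other rows, both dimmer, had changes of -0.38 and 0.56, so the rows of this gene disagreed. Uqcr11, a small accessory subunit, had the lowest change of all members. It was 6.70 and 6.75 in wild type and 6.49, 6.53 and 6.61 in transgenic arrays, a change of -0.18 ± 0.044 (SE, limma adjusted p = 0.169). Uqcrq, another small accessory subunit, had the third lowest, from 8.51 and 8.42 to 8.32, 8.37 and 8.39 (-0.11 ± 0.038, SE, limma adjusted p = 0.320). In both the transgenic arrays lay below the wild type arrays. The other accessory subunits Uqcrb, Uqcr10 and Uqcrh had changes of 0.0100, 0.0042 and 0.071. Uqcrh, known as the hinge protein, varied within both groups, at 7.10 and 6.77 against 6.91, 6.91 and 7.21.

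Complex IV, cytochrome c oxidase, was covered by 6 nuclear-encoded subunits, none of them catalytic, since the catalytic ones are encoded in mitochondrial DNA. Cox5b was 9.31 and 9.46 in wild type and 9.49, 9.46 and 9.46 in transgenic arrays, a change of 0.086 with a 95% interval of -0.072 to 0.24. Cox7c was 8.97 and 8.93 against 8.83, 9.02 and 9.01, and its second, dimmer row had a change of -0.23, against 0.0071 in the row used. Cox8a was 7.59 and 7.55 against 7.57, 7.53 and 7.37, with overlap. Cox5a, which is present in every form of the enzyme, was read from a dim row, at percentile 3.42 of the gene means, between 3.39 and 4.41 in the 5 arrays. Its interval, -1.29 to 1.09, was the widest of all members.

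The rule held forms that are typical of other tissues or conditions. Cox4i2, a form of subunit IV known from lung and from low oxygen, was 7.59 and 7.53 in wild type and 7.62, 7.65 and 7.62 in transgenic arrays. Its change was 0.069 ± 0.024 (SE, limma adjusted p = 0.312), and its usual partner form Cox4i1 was not analysed here. Cox8c, known from testis, ran from 4.90 to 5.09, at percentile 14.6 of the gene means. Ndufa4l2, a paralog of Ndufa4 known to be induced in low oxygen, was 5.68 and 5.92 in wild type and 5.93 in all 3 transgenic arrays.

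ATP synthase, which makes ATP from ADP and phosphate, was covered by 9 members. All 9 moved by less than 0.1 on the log2 scale, and none had 5 different values. Atp5b, the catalytic beta subunit, was 11.28 and 11.23 in wild type and 11.32, 11.29 and 11.29 in transgenic arrays, a change of 0.044 with a 95% interval of -0.022 to 0.11. Atp5a1, the alpha subunit, was at 10.48 in 4 arrays and 10.44 in wild type replicate 1. Atp5d, the delta subunit, was at 9.54 in 4 arrays and 9.44 in the same wild type array. Atp5e, the epsilon subunit, was 8.52 and 8.56 against 8.56, 8.62 and 8.56. For the 4 measured subunits of the F1 head the change was thus above 0, by 0.020 to 0.053. In Atp5a1 and Atp5d it came from wild type replicate 1 alone.

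Of the ring subunit genes, which encode the same mature protein, Atp5g1 was 7.42 and 7.50 in wild type and 7.41, 7.42 and 7.42 in transgenic arrays. Atp5g3 was at 10.66 in 4 arrays and 10.70 in transgenic replicate 2. Their changes, -0.040 (95% interval -0.12 to 0.037) and 0.011 (-0.028 to 0.050), each had an interval that included 0. Atp5pb, in the stalk that holds the head in place, and the small membrane subunits Atp5md and Atp5mpl had changes of 0.020, -0.0028 and 0.058. None of the 9 ATP synthase genes reached an unadjusted p under 0.05 in the limma fit.

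**Figure D4:**
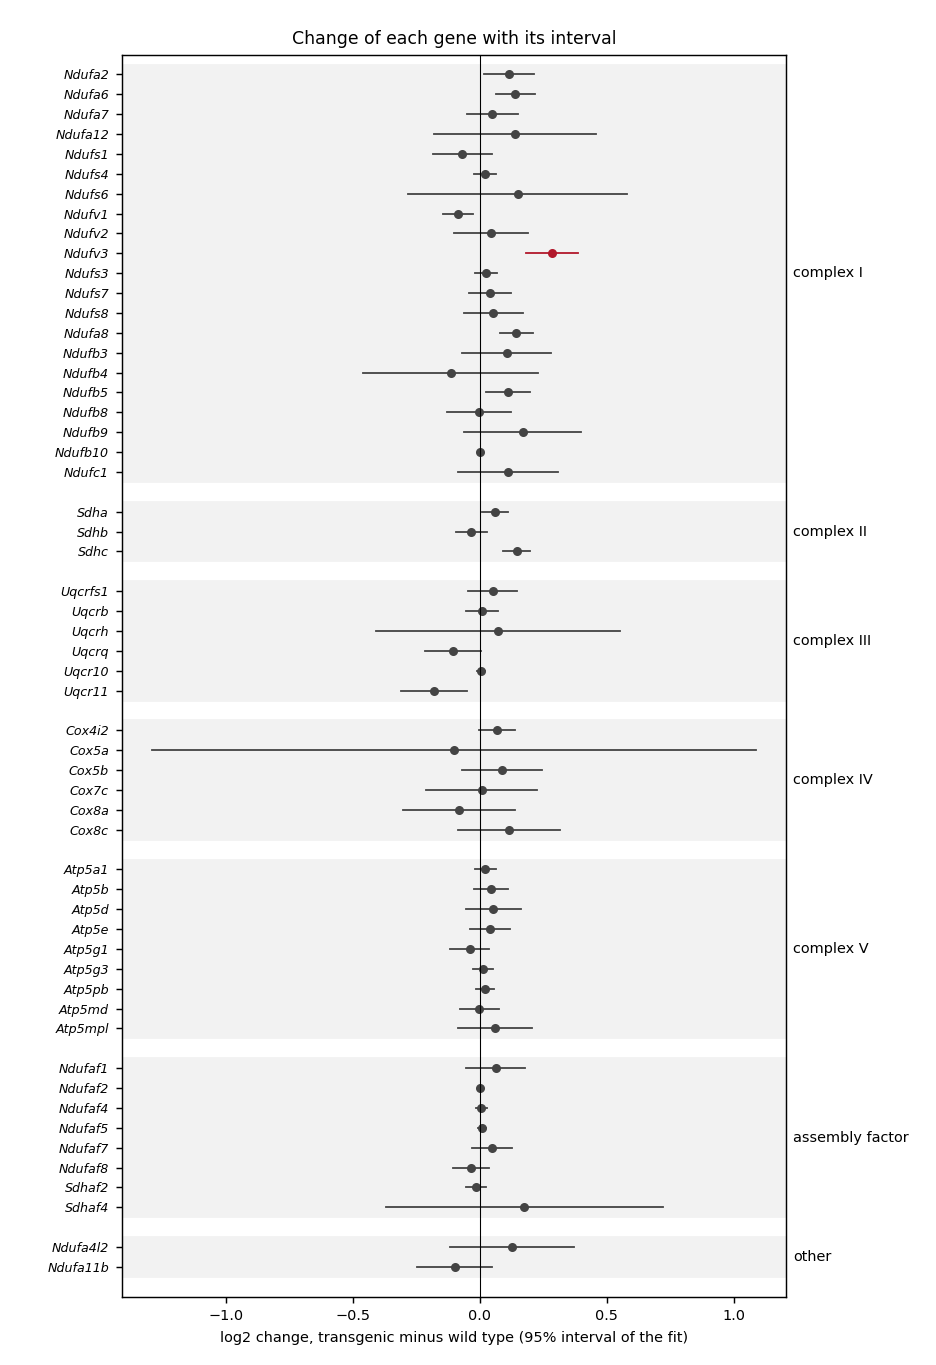
Log2 change of each of the 55 genes, transgenic minus wild type (x axis), with the 95% interval of the limma fit, by complex (y axis). Ndufv3 is drawn in red as the only gene past an adjusted p of 0.05. The intervals of 53 genes stay within a 1.5-fold difference, and those of Cox5a and Sdhaf4 do not.

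The 8 assembly factors, which help build a complex and are not part of it, had a median change of 0.0062, and none passed (limma; 0 at an unadjusted p under 0.05). Sdhaf4, which helps join Sdha to Sdhb, had the second highest change of all members, 0.18 ± 0.19 (SE, limma adjusted p = 0.627). It was 7.31 and 7.11 in wild type and 7.57, 7.10 and 7.48 in transgenic arrays, so the groups overlapped and the transgenic replicates spanned both wild type values. Its second row had a change of 0.084. Sdhaf2, which attaches the flavin to Sdha, was 9.01 and 9.02 against 8.98, 9.01 and 9.01. Ndufaf1, an early factor of complex I assembly, was 8.50 and 8.58 against 8.58, 8.65 and 8.57. Ndufaf5, which modifies Ndufs7, was at 7.16 in 4 arrays and 7.15 in wild type replicate 1, and Ndufaf4 was at 8.05 in 4 arrays and 8.06 in transgenic replicate 2. Ndufaf7, a methyltransferase needed for complex I assembly, and Ndufaf8, the partner of Ndufaf5, had changes of 0.049 and -0.034.

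Other nuclear genes of the pathway were taken from 8 lists with 142 measured genes, of which 2 rose (1.41%) and 3 fell (2.11%) by the same test, where 1.72% of all genes rose and 3.02% fell. Of 26 assembly factors outside the symbol rule, none passed (limma; 7 higher and 1 lower at an unadjusted p under 0.05), with a median change of 0.060 and 76.9% above 0. The highest was Cox15, an enzyme of heme A synthesis, at 8.74 and 8.89 in wild type and 9.11, 9.11 and 9.15 in transgenic arrays (0.31 ± 0.055, SE, limma adjusted p = 0.0934). Cox10, which acts before Cox15 in the same synthesis, went from 9.73 and 9.82 to 9.97, 10.01 and 10.01 (0.22 ± 0.037, SE, limma adjusted p = 0.0808). Both genes were higher in all 3 transgenic arrays without passing. The list as a whole held 12 genes higher (46.2%) and 1 lower (3.85%) without overlap between the groups, where 12.6% and 15.1% of all genes did. Of genes at or above the median level, where 25 of these 26 lay, 42.5% had no overlap in either direction, beside 13 of the 26 in the list. By direction, 1132 of those 6134 genes were higher and 1477 lower without overlap.

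Among 11 measured genes of ubiquinone, cytochrome c and the enzymes that feed ubiquinone, 1 rose and 1 fell. Gpd2, the mitochondrial glycerol-3-phosphate dehydrogenase, which passes electrons from glycerol-3-phosphate to ubiquinone, was 10.07 and 10.06 in wild type and 9.65, 9.75 and 9.73 in transgenic arrays. It fell by 0.36 ± 0.036 (SE) on the log2 scale (limma adjusted p = 0.0350). Coq4, needed for ubiquinone synthesis, rose from 8.30 and 8.34 to 8.49, 8.47 and 8.47 (0.16 ± 0.016, SE, limma adjusted p = 0.0347). When each array was left out, the change of Gpd2 stayed between -0.38 and -0.33 and that of Coq4 between 0.14 and 0.18. The call of Gpd2 was lost whichever array was left out, and that of Coq4 did not hold in every such fit. Over all alternatives the call of Gpd2 was lost in 9 of 17 and that of Coq4 in 6 of 16. Cycs, cytochrome c, had the highest value of the list, 0.74, but its wild type arrays stood at 8.13 and 6.97 against 8.25, 8.16 and 8.47 (limma adjusted p = 0.458).

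Of 10 regulators of mitochondrial gene expression, 1 fell and none rose. Nfe2l2, the transcription factor NRF2, a regulator of antioxidant genes, was 9.60 and 9.72 in wild type and 8.93, 9.00 and 9.05 in transgenic arrays. It fell by 0.67 ± 0.060 (SE, 95% interval of the change -0.84 to -0.49, limma adjusted p = 0.0286), the largest change called in these lists. When each array was left out, the change of Nfe2l2 ran from -0.73 to -0.61, and its call did not hold in every such fit. Over all alternatives this call was lost in 6 of 17. Ppargc1b, a coactivator of mitochondrial genes, was 9.03 and 8.84 against 9.21, 9.24 and 9.39 (0.35 ± 0.094, SE, limma adjusted p = 0.204). All 7 measured genes of mitochondrial redox defence and uncoupling had a change above 0, and none passed (limma; 2 at an unadjusted p under 0.05). Prdx3, a peroxidase of the matrix, and Sod2, the matrix superoxide dismutase, had the highest, 0.41 and 0.40, with limma adjusted p values of 0.212 and 0.148.

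Mitochondrial ribosomal protein genes numbered 51, of which Mrps15 rose and Mrps34 fell. Mrps15 went from 9.22 and 9.19 to 9.33, 9.35 and 9.32 (0.13 ± 0.015, SE, limma adjusted p = 0.0437), and Mrps34 from 8.35 in both wild type arrays to 8.28 in all 3 transgenic arrays (-0.070 ± 0.0028, SE, limma adjusted p = 0.00968). Neither call held under any of the 3 other scalings. Mrps34 was then at -0.066 after median centring, -0.034 after cyclic loess and -0.016 after quantile normalization (limma adjusted p = 0.265, 0.435 and 0.767), and its call was lost in 9 of 16 alternatives. Mrps15 kept its size or more under these scalings (0.13 to 0.18), with limma adjusted p values of 0.0522 to 0.0555, and its call was lost in 12 of 17 alternatives. The median change of this list was 0.027. No gene passed among 10 of the citric acid cycle (median -8.6e-05; 1 lower at an unadjusted p under 0.05), 13 of mitochondrial DNA upkeep and transcription (median 0.021) or 14 of import and the inner membrane (median -0.0042), and in the latter 2 lists 0 genes had an unadjusted p under 0.05, all by limma. Ogdh, a subunit of the 2-oxoglutarate dehydrogenase, had the largest change of the citric acid cycle list (-0.23 ± 0.039, SE, limma adjusted p = 0.0829). In the other 2 lists the largest values were those of Ssbp1, which binds single-stranded mitochondrial DNA (0.68 ± 0.45, SE), and Vdac3, a channel of the outer membrane (-0.26 ± 0.43, SE), each with an interval that included 0.

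**Figure D5:**
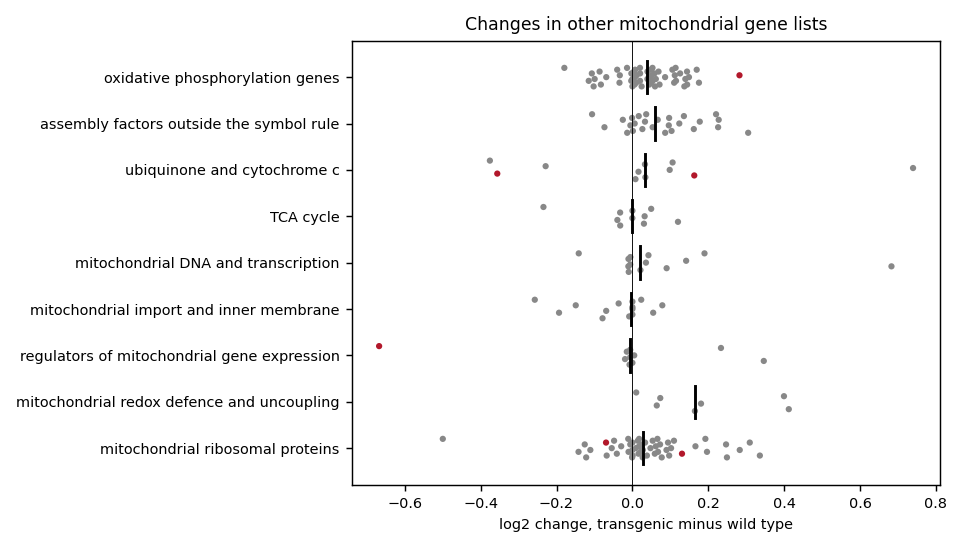
Log2 change, transgenic minus wild type (x axis), of the 55 oxidative phosphorylation genes and of 142 genes in 8 other mitochondrial lists (y axis). Points are genes, red where the adjusted p is under 0.05, and black bars are the median of the list, which runs from -0.0059 for the regulators to 0.16 for redox defence.

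As a check of the cells, 7 of 16 markers of CD4 single-positive T cells were measured, with mean log2 levels of 9.90 to 12.93, and Cd4 and Cd8a were not analysed here. Of other cell types, 2 of 6 B cell markers had mean levels of 4.53 (Ms4a1) and 7.02 (Cd79b), 4 of 6 myeloid markers of 5.59 to 6.26 and 2 of 5 muscle markers of 4.33 and 6.79. None of these 8 passed the limma test. Of 6 markers of thymic epithelium and stroma 5 were measured, at 6.26 to 10.30, and Pecam1, which T cells also express, was lower (-0.30, limma adjusted p = 0.0472), while 0 of 5 erythroid markers were measured. The summed linear level of the T cell markers was 22970 to 23624 in wild type and 19296 to 20130 in transgenic arrays. Cd5 (-0.36, limma adjusted p = 0.0437) and Cd28 (-0.21, 0.0144) fell. Ccr7, the brightest at 12.93, had a change of -0.38 (limma adjusted p = 0.0594) and Cd247 of -0.22 (0.269), without passing. Cd6, Themis and Zap70 were nearly level, with changes of -0.020, -0.024 and 0.011. The summed level of the B cell markers was 140 to 145 in wild type and 156 to 165 in transgenic arrays. In it Cd79b had a change of 0.18 (limma adjusted p = 0.147) and Ms4a1 of 0.018. The sum over the myeloid markers was 246 to 253 and 246 to 256, but its genes moved in both directions. Cd14 had a change of -0.32 (limma adjusted p = 0.260), S100a8 of 0.24 (0.458), Mpo of 0.16 (0.451) and Csf1r of 0.037 (0.458). The sum over 3 of 6 markers of CD8 or immature thymocytes was 342 to 358 and 296 to 325. In it Dntt had a change of -0.54 (limma adjusted p = 0.244), Rag2 of 0.12 and Ptcra of 0.020. The sum over the stroma markers was 1821 to 1900 and 1577 to 1609. Its brightest gene, Pecam1, went from a mean log2 level of 10.48 to 10.19. Epcam, Col1a1 and Foxn1 had changes of -0.054, 0.015 and 0.027, and Krt5 had the same value in all 5 arrays. The part of these shifts in the values of oxidative phosphorylation genes was not tested.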

How the data were processed

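RNA of sorted cells was amplified, labelled with biotin and hybridised, 1 sample per array, per the labels' protocols. Intensity values, linear in scale, were deposited for each of the 5 arrays. Per the submitters' processing notes, the tools were RMA and Affymetrix Expression Console and the build mm9, and no version was listed there. From these, log2(intensity + 1) was computed. Rows with 1 gene symbol in the platform annotation were used (14011 of 65529), and for genes with several the row with the highest mean was kept, as in 3 members. Transgenic minus wild type was fitted over all 12267 genes with lmFit and eBayes of limma 3.58.1 (R 4.3.3; 3 residual and 0.5 prior degrees of freedom) and adjusted by Benjamini and Hochberg. The labels call the arrays of a group biological replicates from pooled mice, and p-values measure the spread between them. An exact permutation test of 2 against 3 arrays cannot give a p below 0.2 two-sided and was not used. Each interval is the 95% interval of this fit. The number of arrays limits the precision, and no batch was given in the sources used here. The procedure was tested on simulated data without tied values and with planted changes larger than that of any member. That test therefore does not show how small changes or tied values are called.

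The members and lists were chosen with earlier results of these data known. Full statistics were given to members past the threshold and to the 3 highest and 3 lowest changes, and values per array to core subunits, paralogs and assembly factors. In the other lists, genes past the threshold and the largest changes were named. Further members and list genes were named after their values were seen. Promoter sequences are from RefSeq (GRCm38.p6), a build other than mm9, matched by gene identifier for 43 members. Alternatives were 3 scalings, the replicate block, a robust fit with a trend on intensity, averaging the rows of a gene, leaving out dim genes, weighting arrays, leaving out each array, genes with 5 different values, all rows, no pseudocount and a threshold of 0.1.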

Additional observations from a re-analysis of the deposited data

How the results depend on the processing

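As deposited, 1 member was called higher and 0 lower. The number called higher was 0 with the replicate block, with an intensity trend and robust fit, with array weights and with all rows tested, 5 after cyclic loess and after quantile normalization, 4 among genes at or above the median level (47 members) and 3 at an adjusted p of 0.1. Leaving out each array gave values from 0 to 7 and a number lower from 0 to 3. The former was 0 without any 1 transgenic array, 3 higher and 3 lower without wild type replicate 1, and 7 and 1 without replicate 2. In the latter 2 fits a single wild type array is taken to vary as the transgenic arrays do, and Ndufv3 itself did not pass. Genes that passed there, such as Ndufs4, Atp5d and Ndufa7, had the same value in all 3 transgenic arrays. The share of all genes called is not given for the fits that left out 1 array. It is also not given for the fit among genes at or above the median level or for an adjusted p of 0.1. Whether members were called more or less often than other genes in these settings was therefore not tested. Without wild type replicate 1, Ndufb4 turned from -0.12 to 0.055 and Ndufv2 from 0.044 to -0.028. Without replicate 2 they stood at -0.29 and 0.12. The adjusted p of Ndufv3 ran from 0.0067 to 0.528 over 17 settings and its change from 0.26 to 0.34. With median centring, the mean of rows, no pseudocount or genes with 5 different values, 1 member was called higher, as before. The median change of the members ran from 0.010 to 0.074. These values lay less than 0.035 from the value as deposited, 0.040. The 0.035 is the pooled SD within groups of the median level of the members in each array. It is close in size to the deposited value itself. In the other 142 pathway genes there were 0 calls higher and 0 lower with the replicate block. After cyclic loess 12 were called higher and 4 lower, where 508 and 581 of 12267 genes were. The replicate numbers name samples and were not shown to pair them: deviations of same-numbered arrays correlated at 0.14 and 0.048 across genes. With the replicate block Ndufv3 had a limma adjusted p of 0.193.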

Other observations

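Rows shared by several gene symbols were not members, and 11 of them carried a symbol of the pathway. In the limma fit over all rows, 0 of the 11 passed an adjusted p of 0.05, and 2 had an unadjusted p under 0.05. The brighter of 2 rows of Cox6c, a complex IV subunit, and EG621837 was 13.14 and 13.13 in wild type and 13.27, 13.41 and 13.41 in transgenic arrays, a log2 change of 0.23 ± 0.060 (SE, limma adjusted p = 0.258), while the other, dim row, at 2.94 to 3.16, had a change of -0.11. The row of Atp5h, a stalk subunit of ATP synthase, with Gm4953 and Gm5048 was 8.27 and 8.38 against 8.10, 8.11 and 8.10, a change of -0.22 ± 0.050 (SE, limma adjusted p = 0.215). In the brighter Cox6c row and in the Atp5h row the groups did not overlap, in opposite directions. The row of Ndufa10, a complex I subunit, with Olfr1415 and Olfr1416 was 10.12 and 10.20 against 10.24, 10.26 and 10.27. The 2 rows of Cox7a2l, which helps complexes III and IV associate, with Gm6969 had changes of 0.46 and -0.081, so they disagreed in sign. The row of Taf3 and Atp5c1 had the same value, 8.26, in all 5 arrays.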
